A study of Mus musculus with 12 samples.

Results

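The genes described are 10 of the 20886 mouse genes with a named probe on the arrays: Ttr, Folr1, Kl, Wfdc2, Aqp1, Slc4a5, Clic6, Kcnj13, Kcne2, and Otx2. They are genes by which the choroid plexus is recognised, and they were chosen with their values on these same arrays already known, so every value below is a description and none was tested. The study compared mouse models of Alzheimer's disease (AD), and 12 one-colour arrays were analysed, 1 for each model. RNA of 3 animals was pooled before it was hybridised. The prefrontal cortex of C57BL/6 mice was taken at 1.5, 4, 17, and 22 months. The hippocampus of C57BL/6 mice was taken from 3 transgenic models, which were a mutated human NCSTN gene at 10 months, wild-type human MAPT at 12 months, and 5xFAD at 6 months, so genotype and age cannot be told apart there, and the promoters driving the transgenes are not given in the sources used here. The hippocampus of ICR mice, 7 weeks old, was taken 14 days after injection into the lateral ventricle of aggregated amyloid-β (Aβ) at 5 or 10 µM or of streptozotocin (STZ) at 2.5 or 3 mg/kg, or 30 minutes after intraperitoneal scopolamine at 1 mg/kg. All mice had fasted overnight. Control arrays were not analysed here, so an array was set against other arrays of its tissue set. With 1 array for each model there is no replicate error, and no p-value is given.

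The choroid plexus is a folded epithelium on a core of vessels and stroma that hangs in the ventricles and makes most of the cerebrospinal fluid. Its cells move sodium, chloride, bicarbonate, and water from blood to fluid, carry vitamins across, and secrete carrier proteins. They share an origin with the ependymal cells that line the ventricles. The plexus of the lateral ventricle lies along the hippocampus, whereas the prefrontal cortex does not border it. Ttr is the carrier of thyroxine and of the retinol carrier in the fluid, Folr1 is the folate receptor that brings folate into it, Kl encodes the co-receptor klotho, and Wfdc2 encodes a small secreted protein. Aqp1 is a water channel, Slc4a5 is a sodium bicarbonate cotransporter, Clic6 belongs to a family of chloride channel proteins, Kcnj13 is an inwardly rectifying potassium channel, and Kcne2 is an accessory subunit of potassium channels. Otx2 is a homeodomain transcription factor needed for the choroid plexus to form.

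RefSeq windows (build GRCm38.p6) before annotated start sites were used for 7 of the 10 genes, 12 windows in all, and were searched because the genes moved together. No window was used for Ttr, Folr1, or Clic6. Windows on 1 chromosome were left out for the 10 genes but kept among all windows. A gene without a window here may therefore still have an annotated start. The letters searched, on both strands, were TAATCC (a site of the kind bound by Otx2), CCAAT (known by its letters as a promoter box), and TATAAA (a common form of the promoter box near start sites), and no matches overlapped. Of all 32851 windows of the same 250 bases, 6.25% held TAATCC, 33.8% held CCAAT, and 12.4% held TATAAA. A match to TAATCC occurred in 1 window, before a start of Otx2 itself. CCAAT occurred in 2 of the 12 windows, of Kcnj13 and Otx2, and TATAAA in 3 of the 12, of Kcnj13, Otx2, and Slc4a5. Some windows of Otx2 and of Wfdc2 overlap, so the 12 are not separate stretches. In Kcnj13 both CCAAT matches began 96 and 71 bases before the start and TATAAA began 29 bases before it. Such a match is a description of the letters and not a binding site. The 250 bases are shown for Kcnj13 (chr1:87394730-87394979, minus strand) and for an Otx2 start (chr14:48665110-48665359, minus strand), which hold matches, and for Kcne2 (chr16:92292139-92292388, plus strand) and Kl (chr5:150952357-150952606, plus strand), which hold none, Kl being the gene that departed most from the others in injected hippocampus. Capitals mark the matches.
Kcnj13: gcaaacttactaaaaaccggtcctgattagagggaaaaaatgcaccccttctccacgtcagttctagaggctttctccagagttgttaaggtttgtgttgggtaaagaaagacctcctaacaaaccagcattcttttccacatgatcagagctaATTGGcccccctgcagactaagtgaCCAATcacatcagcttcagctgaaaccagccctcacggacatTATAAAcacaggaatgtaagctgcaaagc
Otx2: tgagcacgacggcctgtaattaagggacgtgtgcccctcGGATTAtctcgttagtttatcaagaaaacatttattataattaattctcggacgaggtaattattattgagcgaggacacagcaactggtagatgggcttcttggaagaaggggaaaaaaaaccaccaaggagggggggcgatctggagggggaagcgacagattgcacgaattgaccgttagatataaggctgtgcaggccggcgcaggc
Kcne2: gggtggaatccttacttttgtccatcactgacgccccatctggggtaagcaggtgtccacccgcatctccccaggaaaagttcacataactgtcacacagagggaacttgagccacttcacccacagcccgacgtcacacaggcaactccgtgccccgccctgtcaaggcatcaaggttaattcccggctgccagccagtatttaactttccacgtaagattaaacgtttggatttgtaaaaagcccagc
Kl: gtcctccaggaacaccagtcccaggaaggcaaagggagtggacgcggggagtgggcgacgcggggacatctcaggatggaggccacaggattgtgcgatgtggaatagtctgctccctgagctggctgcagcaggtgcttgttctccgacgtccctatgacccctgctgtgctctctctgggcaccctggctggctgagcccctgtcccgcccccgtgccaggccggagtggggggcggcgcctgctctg

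Levels are log2 of the processed signal after quantile normalization over the 12 arrays, and a difference of 1 is 2-fold. A level is called well above background where the scanner software flagged at least 1 probe of the gene so. A level cannot be compared between genes, since probes differ. Between 63.5% and 75.9% of probes were well above background on an array, and no spot was saturated. The study's methods describe male mice, yet the 3 transgenic arrays had Xist, the RNA of the inactive X chromosome, at 9.19 to 9.59, with the Y-linked genes Ddx3y and Eif2s3y not above background, and the other 9 arrays showed the opposite. The bright probe of Folr1 was marked as an outlier on the Aβ 10 µM array, so Folr1 has no level there. Medians in ICR hippocampus that need a level on every array, or on both Aβ arrays, cover 9 genes. Differences from the Aβ mean include Folr1 by the Aβ 5 µM array alone. Kcnj13, Folr1, Wfdc2, and Slc4a5 had 2 probes each, which were averaged. In whole tissue, fewer choroid plexus cells and less of their RNA per cell cannot be told apart.

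All 10 genes were well above background on the 3 transgenic arrays, both Aβ arrays, the scopolamine array, and the 17-month cortex array. On the other cortex arrays 6 genes (1.5 months), 7 genes (4 months), and 8 genes (22 months) were, and 8 and 9 genes were on the STZ arrays at 2.5 and 3 mg/kg. Slc4a5 was above background on 7 arrays, Kcne2 on 9, Aqp1 and Otx2 on 10, and the others on all 12.

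**Figure D1:**
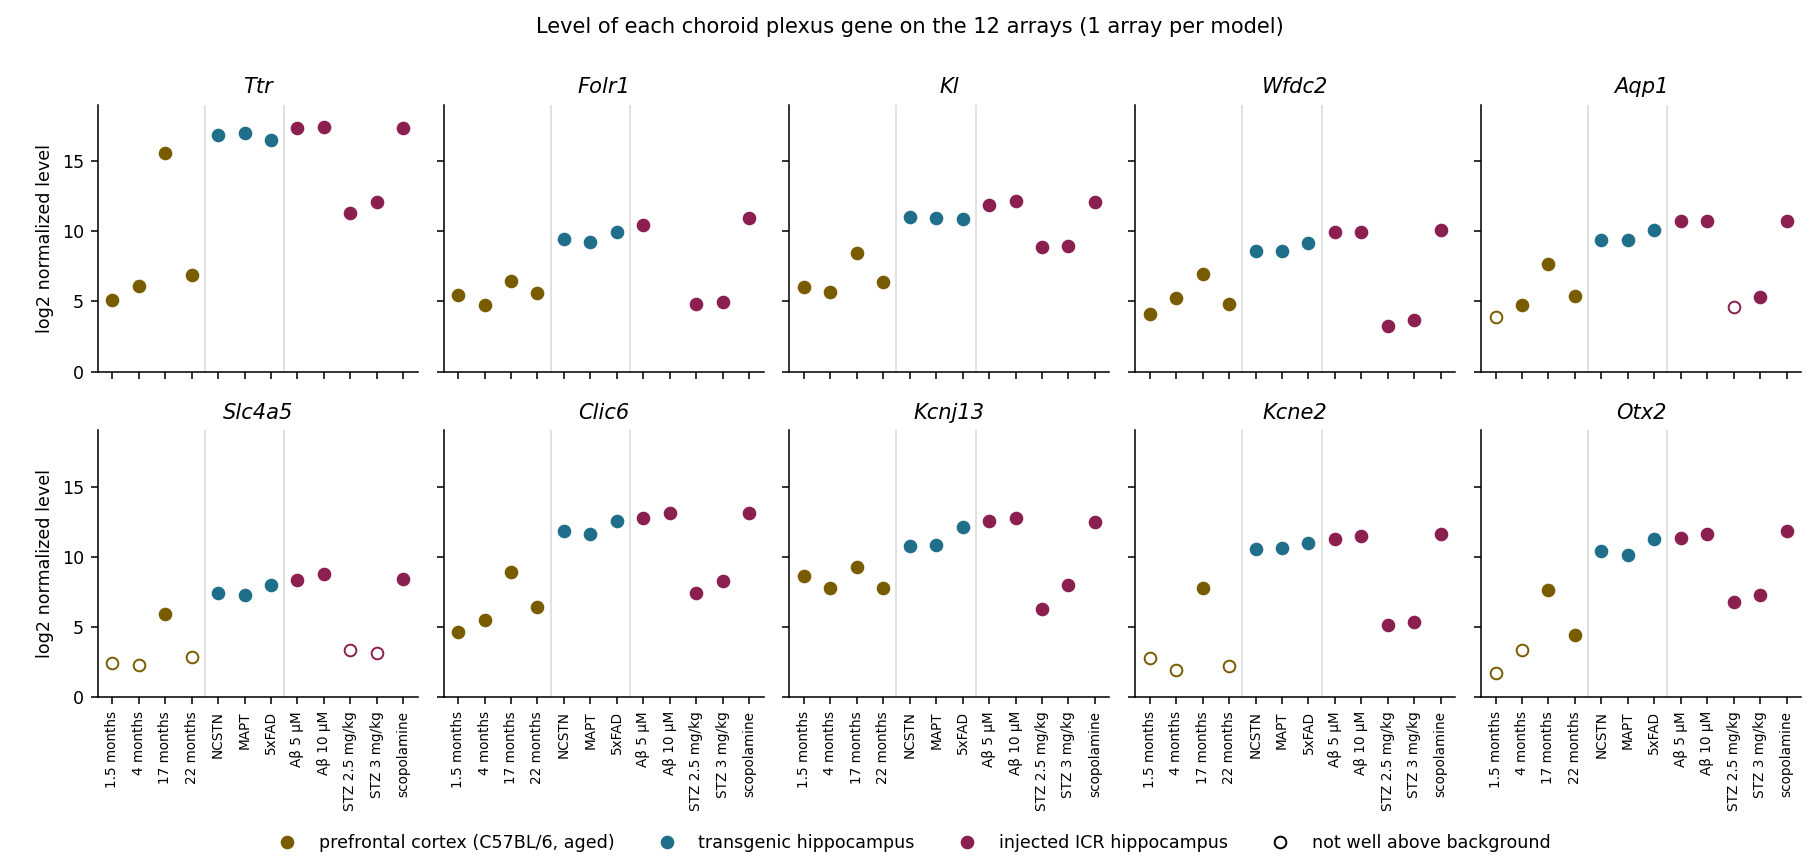
The log2 normalized level of each gene (vertical axis) on each of the 12 arrays (horizontal axis), coloured by tissue set, with open circles where the gene was not well above background. In injected ICR hippocampus both STZ arrays lie below the other arrays for every gene, and in cortex the 17-month array is the highest for every gene. Folr1 has no point at Aβ 10 µM.

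In ICR hippocampus, all 10 genes were lower on both STZ arrays than on both Aβ arrays. Ttr was at 17.35 and 17.41 with Aβ at 5 and 10 µM, at 11.27 and 12.06 with STZ at 2.5 and 3 mg/kg, and at 17.33 with scopolamine. Both STZ arrays were thus far below the other 3, which lay within 0.08 of each other. The mean of the STZ arrays was 1.91% of the Ttr level of the Aβ arrays, a difference in log2 level of -5.71.

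The other genes with a secreted or receptor product were also low on both STZ arrays. Wfdc2 was at 9.96 and 9.95 with Aβ, at 3.26 and 3.64 with STZ, and at 10.10 with scopolamine, a difference of -6.50. Its dimmer probe was near the lowest levels on the STZ arrays (1.73 and 1.84), and by its brighter probe alone the difference was -5.61, a 49.0-fold lower level. The bright Folr1 probe was at 13.03 with Aβ at 5 µM, at 7.89 and 8.02 with STZ, and at 13.52 with scopolamine. That probe alone gave a difference of -5.07, resting on a single Aβ array. Kl was at 11.85 and 12.17 with Aβ, at 8.89 and 8.95 with STZ, and at 12.06 with scopolamine. Its groups did not overlap either, but its difference of -3.09 was the smallest of the 10, and the STZ arrays held 11.8% of its level on the Aβ arrays.

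The channels and transporters showed the same split. Kcne2 was at 11.25 and 11.50 with Aβ, at 5.17 and 5.33 with STZ, and at 11.62 with scopolamine, a difference of -6.12. Aqp1 was at 10.72 and 10.73 with Aβ and with scopolamine at 10.73, but was at 4.58, not above background, with STZ at 2.5 mg/kg and at 5.29 at 3 mg/kg. Clic6 was at 12.76 and 13.13 with Aβ, at 7.43 and 8.25 with STZ, and at 13.15 with scopolamine, a difference of -5.11. Kcnj13 was at 12.55 and 12.75 with Aβ and 12.51 with scopolamine, and its STZ arrays differed most from each other, at 6.32 and 8.01. Slc4a5 was not above background on either STZ array and was at least 33.7-fold lower there than with Aβ. The transcription factor Otx2 was at 11.34 and 11.64 with Aβ, at 6.76 and 7.25 with STZ, and at 11.82 with scopolamine, a difference of -4.48.

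The median difference of STZ from Aβ over the 10 genes was -5.53, which is 46.1-fold and the same with Slc4a5 at its limit, whereas the median over all genes was 0.02. All 10 genes were at least 2-fold lower with no overlap, as were 4.72% of the 16021 genes measured in this comparison. At least 16-fold lower were 9 of the 10 genes, against 28 genes or 0.175% overall. Among the 16021 genes ordered by the size of the decrease, Wfdc2 was at rank 1, Kcne2 at 2, Aqp1 at 4, Ttr at 5, Kcnj13 at 7, Clic6 at 11, Otx2 at 22, and Kl at 73. Folr1 lacked a value on 1 array and is not among the 16021 genes, and Slc4a5, known only by a lower limit, is given no rank. The genes were proposed with this difference known, so these shares and ranks describe the choice and support nothing.

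Between the STZ doses, 9 of the 10 genes were higher at 3 than at 2.5 mg/kg, as were 54.2% of all genes, with a median difference of 0.44. Kcnj13 was 3.22-fold higher at 3 mg/kg (1.69), Clic6 and Ttr were higher by 0.82 and 0.79, and Kl differed by 0.06. Slc4a5, the exception, was not above background at either dose. Each dose is a single array, so dose and array cannot be told apart. With scopolamine, no gene was 2-fold from the mean of the Aβ arrays, against 5.33% of all genes, and the median difference was 0.10, from -0.14 for Kcnj13 to 0.50 for Folr1. Between Aβ at 10 and 5 µM the median difference was 0.25 over 9 genes, against 0.02 over all genes, and each dose is again a single array. The 3 arrays without STZ were thus close to each other, and with both STZ arrays left out no gene kept a range of 2-fold.

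**Figure D2:**
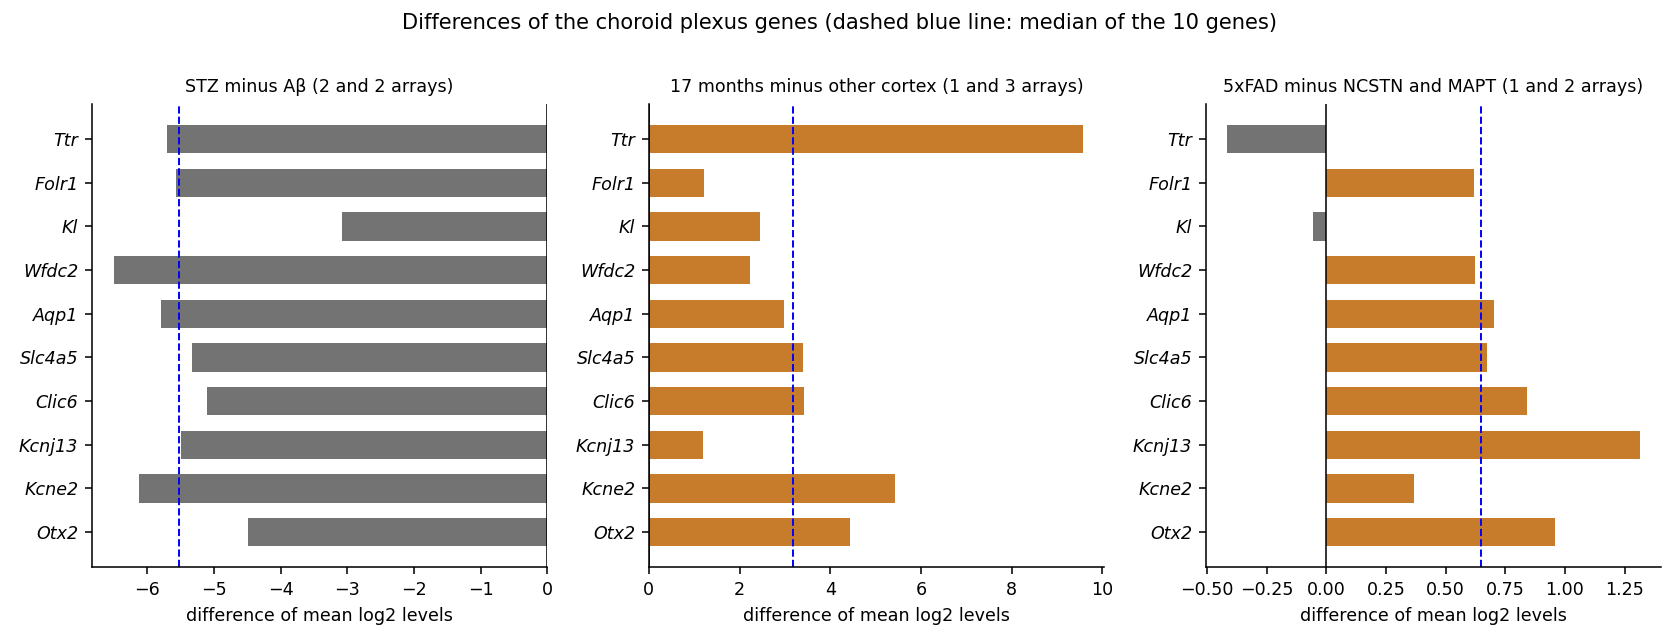
Differences of mean log2 levels (horizontal axes) for each gene, with STZ minus Aβ on the left, 17 months minus the other cortex arrays in the middle, and 5xFAD minus the other transgenic arrays on the right, and with the median of the 10 genes as a dashed line. The STZ differences lie between -6.50 and -3.09, the 17-month differences spread from 1.19 to 9.56, and those of 5xFAD from -0.42 to 1.32. The bar for Folr1 in the left panel rests on the Aβ 5 µM array alone.

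In the aged cortex, the 17-month array was the highest for all 10 genes. Ttr was at 5.11, 6.06, 15.57, and 6.85 at 1.5, 4, 17, and 22 months. The 17-month level was 756-fold above the mean of the other ages, a difference of 9.56, and the other 3 arrays lay within 1.74 of each other. Kcne2 was at 7.76 at 17 months and not above background at the other ages, which makes it at least 27.4-fold higher. Otx2 was at 1.76 and 3.37 at 1.5 and 4 months, both not above background, at 7.62 at 17 months, and at 4.42 at 22 months. Slc4a5 was above background in cortex at 17 months only, and at least 8.18-fold higher there.

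The increase was smaller for the other genes. Clic6 was at 4.67, 5.47, 8.94, and 6.39 over the 4 ages, a difference of 3.43 for 17 months. Aqp1 was at 7.64 at 17 months and between 3.92 and 5.36 at the other ages. Kl was at 6.03, 5.66, 8.48, and 6.37, a difference of 2.46, and Wfdc2 differed by 2.22. Kcnj13 was at 8.66, 7.80, 9.28, and 7.81, so that its 17-month array was 2.28-fold above the mean of the others but only 0.62 above the 1.5-month array. Folr1 differed by 1.22 as the mean of both probes and by 2.61 by the bright probe alone, since its dim probe was no higher at 17 months (3.58) than at 1.5 months (3.62).

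Over the 10 genes, the median difference of 17 months from the other ages was 3.18, which is 9.07-fold, or 3.00 with Kcne2 and Slc4a5 at their limits. All 10 were at least 2-fold higher, as were 1.87% of 16108 genes. In the order of all these genes Ttr was at rank 1, Clic6 at 21, Aqp1 at 35, Kl at 71, Wfdc2 at 91, Folr1 at 222, and Kcnj13 at 233, and no rank is given for Kcne2, Slc4a5, and Otx2, which were not above background on 2 or more of the other arrays. Ttr, Aqp1, Clic6, and Otx2 were in the order 1.5, 4, and 22 months from low to high, with Aqp1 not above background at 1.5 months and Otx2 at 1.5 and 4 months. Kl, Kcnj13, and Folr1 were instead lowest at 4 months, and Wfdc2 was highest there (5.25, against 4.11 and 4.82). Kcne2 and Slc4a5 were not above background at these ages, so the genes shared no order of them. The median level of the 10 genes was 4.39, 4.99, and 5.46 at 1.5, 4, and 22 months, where 6, 7, and 8 of them were well above background. At 22 months, the oldest age, the median difference from the mean of the other ages was -0.48, and it was 0.53 without the 17-month array. A single pool of 3 animals stands for 17 months, so age and pool cannot be told apart.

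In transgenic hippocampus the genes varied little. Ttr was at 16.84, 16.97, and 16.49 in NCSTN, MAPT, and 5xFAD, lowest in 5xFAD. Kcnj13 was at 10.80, 10.85, and 12.14, a 2.49-fold higher level in 5xFAD and the largest difference of the 10. Otx2 was at 10.45, 10.14, and 11.25, highest in 5xFAD by 0.96 over the mean of the other 2 models. Clic6 was at 11.85, 11.60, and 12.57, with 5xFAD again the highest. Kl was at 10.97, 10.90, and 10.88, a range of 0.09. In all, 8 of the 10 genes were highest in 5xFAD, with Ttr and Kl the exceptions, and the median difference was 0.65. At least 1.5-fold higher in 5xFAD were 7 of the 10 genes and 15.1% of all genes. NCSTN and MAPT differed by a median of -0.05.

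All 10 genes were lower on every cortex array than on every transgenic hippocampus array, as were 14.4% of all genes. Of 12 ependymal genes 10 were also at least 2-fold lower with no overlap (median -2.22, or -2.02 with dim genes at their limits), and their part was not tested. The median difference of the 10 genes was -4.23, from -2.88 for Kcnj13 to -8.37 for Ttr. Without the 17-month array the median was -4.97. The 17-month array itself stayed below all 3 transgenic arrays, with a median difference of -2.21, and held 43.6% of their Ttr level but 11.9% of their Clic6 and Folr1 levels and 32.0% of their Slc4a5 level. Cortex and hippocampus here differ in tissue, genotype, age, and in the sex-linked genes together, and these cannot be told apart.

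The low arrays of both tissues were not low in the same pattern. With STZ, Ttr was at 11.27 and 12.06, far above the 5.11 to 6.85 of the cortex at 1.5, 4, and 22 months, a difference of -5.66 for cortex. Kl (-2.90) and Clic6 (-2.33) were also lower in those cortex arrays than with STZ, and Kcne2 was at least 4.84-fold lower. Otx2 was lower too, but above background only at 22 months (4.42). Kcnj13 was on the contrary higher in those cortex arrays, by 0.93, with overlapping arrays. For Wfdc2 and Folr1 the direction depended on the probe. Wfdc2 had a difference of 1.27 by both probes and -0.19 by the brighter probe alone, and Folr1 had 0.36 and -1.21. The 17-month cortex array differed from the STZ arrays by a median of 2.31, or 2.26 with Slc4a5 at its limit. The median over all genes was -0.02. Kl was slightly higher with STZ (a difference of -0.44 for 17 months). Tissue, strain, age, and treatment differ together in these comparisons.

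Whether the genes changed by equal amounts was described by setting the deviation of each gene from its mean over a tissue set against the median deviation of the other genes, where equal log2 changes give a slope of 1. In ICR hippocampus the slopes were close to 1 for 7 genes, namely 0.91 for Clic6, 0.93 for Slc4a5, 0.98 for Kcnj13, 1.04 for Ttr, 1.05 for Folr1 over its 4 arrays, 1.07 for Aqp1, and 1.13 for Kcne2. Slc4a5 was not above background on either STZ array, nor was Aqp1 at 2.5 mg/kg. The dim Folr1 probe was near the lowest levels with STZ (1.73 and 1.91). A level cannot fall further there, so the slopes of Slc4a5, Aqp1, and Folr1 are bounded. Wfdc2 was steeper at 1.20, but 1.03 by its brighter probe. Otx2 was shallower at 0.81. Kl departed most, with a slope of 0.54 and an SD of 1.44 left after the median of the other genes was subtracted, against 0.16 for Ttr and 0.23 for Aqp1. On the STZ arrays Kl lay 1.92 and 1.24 above that median. These slopes rest on the distance between the STZ arrays and the rest, and with both STZ arrays left out the slope of Ttr, for example, was 0.09.

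In cortex the genes did not keep to a single slope. Ttr was steepest at 3.20 and Kcne2 and Otx2 had slopes of 1.67 and 1.53, whereas Aqp1, Slc4a5, and Clic6 lay near 1 (0.92, 1.09, and 1.17). Kl and Wfdc2 were shallower (0.72 and 0.67), and Kcnj13 and Folr1 shallowest (0.30 and 0.36), with Folr1 at 0.67 by its bright probe. On the 17-month array Ttr lay 4.94 above the median of the other genes and Kcnj13 lay below it (-1.65). Slc4a5, Kcne2, Aqp1, and Otx2 were at or near background on some of the other cortex arrays, where a level cannot fall further and a slope is thereby bounded. In transgenic hippocampus, where the median itself ranged over only 0.69, Ttr (-0.63) and Kl (-0.07) did not follow the others, and Kcne2 was shallow at 0.51. Kcnj13 had a slope of 2.13, Otx2 of 1.60, and Clic6 of 1.39, and Folr1, Wfdc2, Aqp1, and Slc4a5 lay between 0.91 and 1.11. Kl was therefore shallower than 1 in all 3 tissue sets, Ttr followed the others in ICR hippocampus alone, and Aqp1 had a slope between 0.92 and 1.08 in each set.

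**Figure D3:**
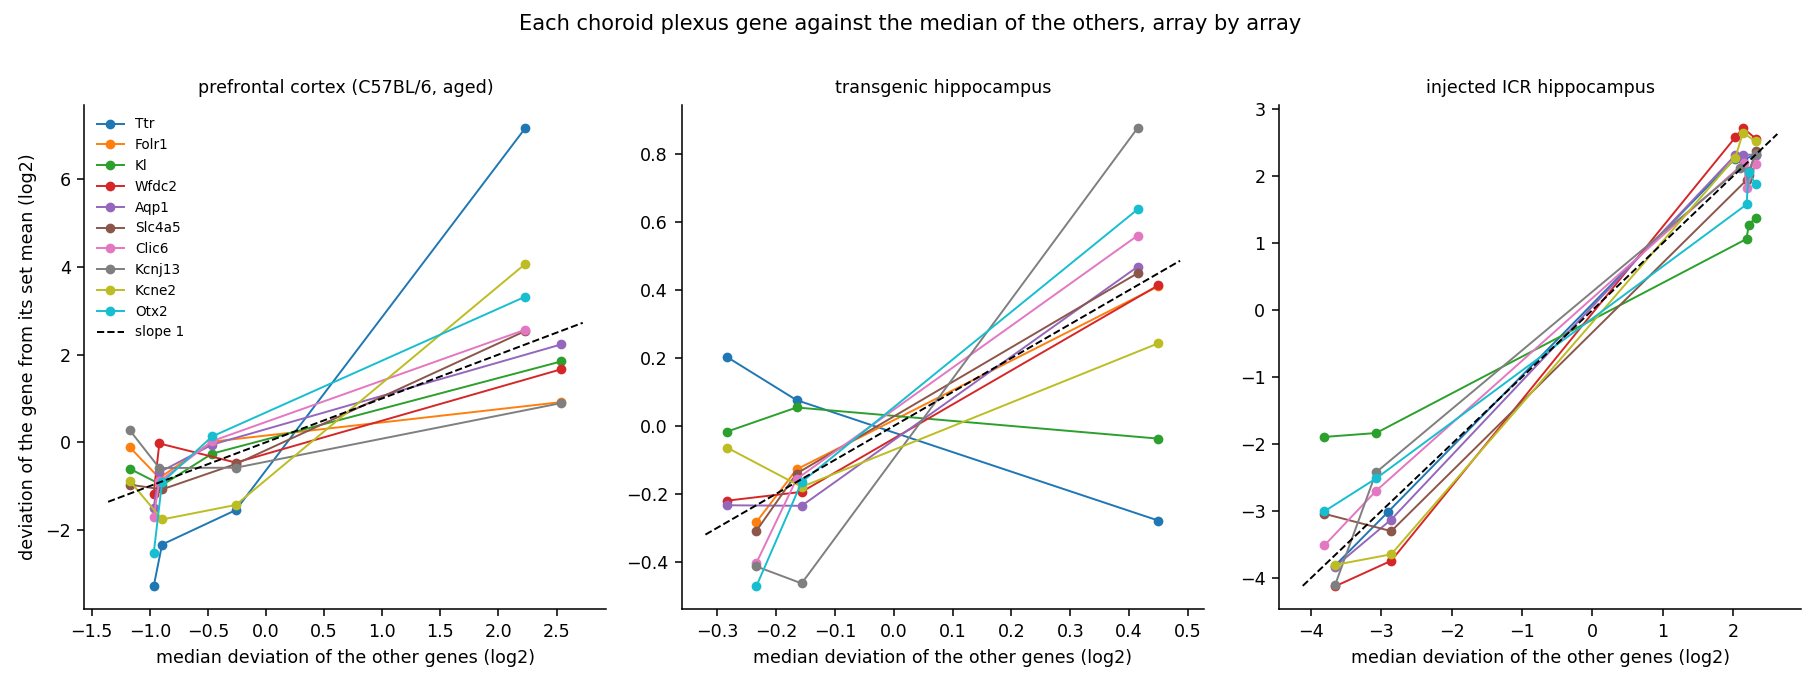
The deviation of each gene from its mean over the tissue set (vertical axes, log2) against the median deviation of the other genes on the same array (horizontal axes, log2), with points for arrays, lines for genes, and a dashed line of slope 1. In ICR hippocampus the lines run close to the dashed line except that of Kl, in cortex Ttr rises to 7.17 at 17 months, and the transgenic panel spans a far smaller range. Folr1 is left out of the right panel because it lacks a level on 1 array.

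The range over a tissue set was at least 2-fold for 10 of 10 genes in cortex, against 11.6% of all genes, for 2 of 10 (Kcnj13 and Otx2) in transgenic hippocampus, against 18.2%, and for 10 of 10 in ICR hippocampus, against 17.6%. Over the set-centred values of all 12 arrays, the correlation of a gene with the median of the other genes was highest for Aqp1 (Pearson's r of 0.992) and lowest for Ttr and Folr1 (0.860 and 0.859). These arrays are not replicates, and the STZ and 17-month arrays dominate the correlation.

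Other genes of the choroid plexus epithelium moved the same way, but less. Of 17 measured genes of epithelial identity, 16 were at least 2-fold lower with STZ than with Aβ without overlap, with a median of -2.77. Steap1 was at 9.58 and 9.77 with Aβ and not above background with STZ, at least 45.9-fold lower. Cldn2, a tight junction protein of leaky epithelia, and Col8a1, a collagen, were not above background with STZ either, and were at least 10.2-fold and 11.3-fold lower. Krt18, a keratin of simple epithelia, had a difference of -4.45. Of 12 genes of secreted products, 9 were 2-fold lower (median -2.87), among them Ecrg4 (-5.07), the coagulation factor gene F5 (-4.96), Lbp (-4.17), and Enpp2, which makes lysophosphatidic acid (-3.34). The broadly expressed Clu (-0.06) and Cst3 (0.22) were near 0. With scopolamine 2 of these 12 genes, Bmp7 (-1.40) and Igf2 (-1.11), were also at least 2-fold lower than with Aβ, unlike the 10 genes. Of 14 transport genes, 9 were 2-fold lower (median -1.23), among them Slco1a5, an organic anion transporter, which was not above background with STZ and at least 17.9-fold lower. The Slco1a5 probe was above background on 6 arrays, all of them hippocampus without STZ.

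At 17 months these lists were less uniform. With genes not above background at their limits, 7 of 17 epithelial genes were at least 2-fold higher than at the other ages (median 0.79), as were 3 of 12 secreted genes (median 0.61) and 1 of 14 transport genes (median 0.08). Sostdc1, a secreted antagonist of bone morphogenetic proteins, differed by 3.36 and Krt18 by 3.00, and Steap1, not above background at the other ages, was at least 9.56-fold higher. Lmx1a, a transcription factor of the embryonic choroid plexus, was not higher (-0.06), and at 2.22 was not above background there. In 5xFAD the medians of the epithelial, secreted, and transport lists were 0.23, 0.52, and 0.48.

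Markers of neighbouring cells moved with some of these differences. With STZ, 8 of 12 ependymal genes were at least 2-fold lower than with Aβ, with a median of -1.20 (7 genes and -1.12 with dim genes at their limits), and Foxj1, the regulator of motile cilia, had a difference of -1.12. Their log2 summed level was 11.90 and 11.81 on the STZ arrays and 13.26 and 13.32 on the Aβ arrays. All 12 meningeal fibroblast genes were at least 2-fold lower with STZ (median -2.36), with a summed level of 12.94 and 14.79 against 16.48 and 16.14. Neither list was at 0 on any array, since 10 of 12 ependymal genes were well above background on each STZ array and all 12 meningeal genes on every array. The meningeal genes did not order the arrays as the choroid plexus genes did. With scopolamine 11 of 12 of them were at least 2-fold lower than with Aβ (median -2.37), where none of the 10 genes was 2-fold apart, and between STZ at 3 and 2.5 mg/kg 10 of 12 were at least 2-fold higher (median 1.80). Of 8 neuronal, 7 astrocyte, 8 endothelial, and 8 hippocampal genes, none was 2-fold lower with STZ, with medians of 0.17, 0.10, -0.29, and -0.0013. The part of other cells in the STZ difference was not tested.

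At 17 months, no meningeal gene and no ependymal gene was 2-fold higher than at the other ages (medians 0.35 and -0.02), and the ependymal summed level was 10.37, between 10.20 and 10.69 at the other ages. Neuronal and astrocyte medians were 0.11 and -0.01. Of 8 genes marking cortical layers none was 2-fold apart (-0.38 to 0.48), and of 8 hippocampal genes Fibcd1, not above background at 17 months, was at least 2.34-fold lower.

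**Figure D4:**
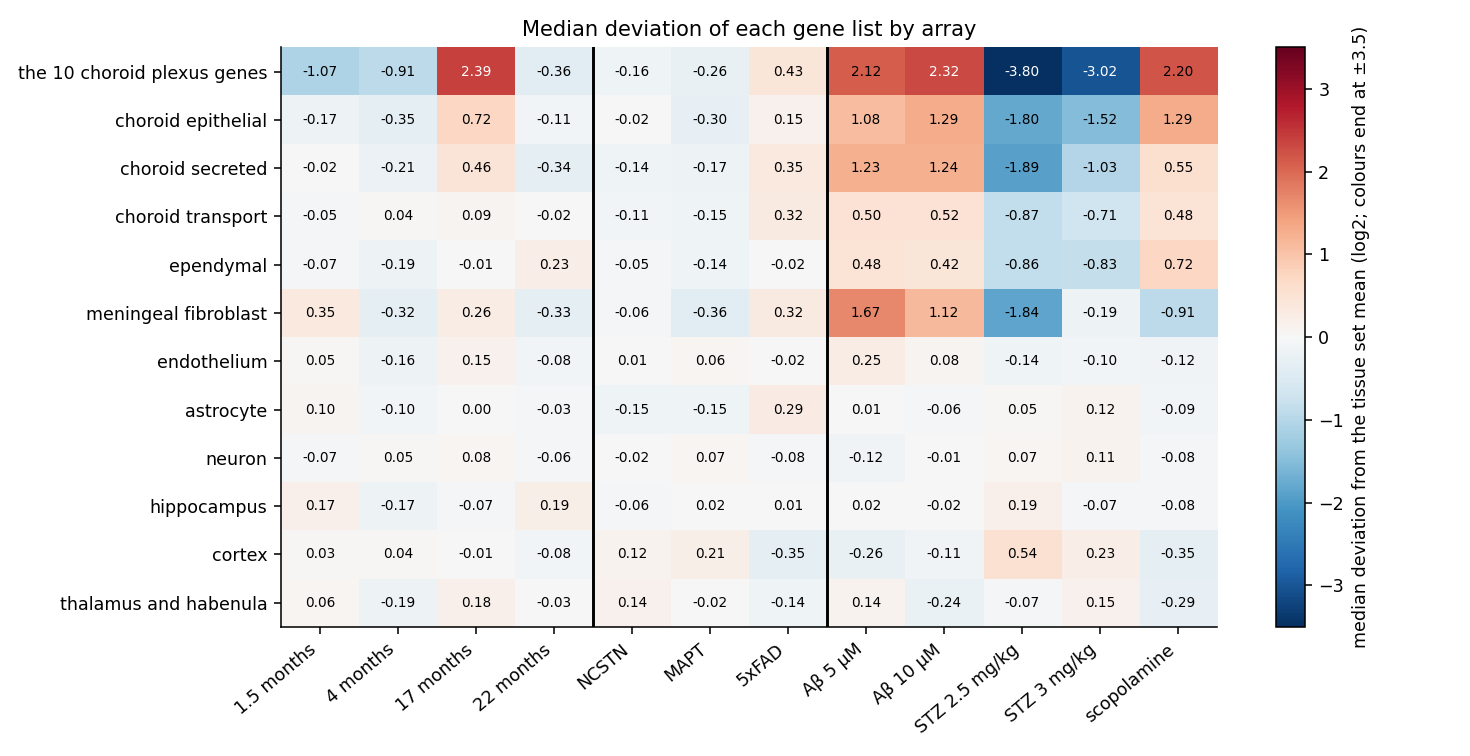
Median deviation from the tissue set mean (colour and printed value, log2) of each gene list (rows) on each array (columns), with black lines between the tissue sets. The 10 choroid plexus genes reach 2.39 at 17 months, where the ependymal list is at -0.01, and -3.80 and -3.02 on the STZ arrays, where the neuron list is at 0.07 and 0.11.

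The genes most like the 10 were sought among 1317 genes that were above background on at least 6 arrays and had an SD of at least 0.5 after centring by tissue set. The highest correlations with the median of the 10 genes over the 12 arrays belonged to Prr32 (r of 0.993), Smim22 (0.988), Steap1 (0.988), Prlr, the prolactin receptor (0.988), Krt18 (0.986), Cldn2 (0.982), F5 (0.982), Ace, the angiotensin-converting enzyme (0.982), Stra6, the retinol transporter (0.981), and Cdh3, a cadherin (0.977). Without the STZ arrays their r over the remaining 10 arrays lay between 0.879 for Cdh3 and 0.971 for Prr32. Their slopes differed, from 0.35 for Ace to 1.02 for Steap1, so a like order of the arrays went with unequal changes. Of the lists of other choroid plexus genes, 28 genes were among the 1317, and 15 of those were in the 50 most alike, whereas 77 genes had an r of at least 0.9. The arrays share 2 dominant differences, so many genes can have such a pattern.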

How the data were processed

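Gene expression was measured with Agilent 44K one-colour mouse arrays, and RNA of 3 animals was pooled for each. The authors deposited scanner intensity values of every spot (processed signal, median signal, local background, flags), not normalized between arrays. The labels name Cy5 as the dye whereas the columns are those of the green channel. A second table from the authors holds processed intensity values for all arrays in a matrix. Its columns rank probes as the processed signal does for C57BL/6 arrays and as median minus background does for ICR arrays, and its scale and centring are not stated. Column medians were 117 (cortex, NCSTN, MAPT), 134 (5xFAD), and 157 to 158 (ICR).

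From the deposited intensities, outlier spots (110 to 234 per array) were left out, processed signals were put on the log2 scale, spots of a probe were averaged, and 39429 probes were quantile normalized over 12 arrays with limma 3.58.1 in R 4.3.3. The study's filter, 1.4-fold over local background, was not applied, because it removes dim probes; it was an alternative. Accessions were matched without versions to RefSeq, which named 27508 probes (69.8%) of 20886 genes, and probes of a gene were averaged. The genome build of the files is not given in the sources used here. The methods' mean signal column is not in the files, so normexp used the median signal. The functions were tested on simulated data.

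The 10 genes and all gene lists were chosen with earlier results of these data known. Beside them, the text names at most 6 genes of other choroid plexus lists with the largest range in ICR hippocampus, the 10 genes most like the 10, and Xist, Ddx3y, and Eif2s3y. Cldn2, Krt18, Sostdc1, Enpp2, Clu, Cst3, Lmx1a, Foxj1, Fibcd1, Bmp7, Igf2, and Plekhg1 were named after their values were seen. The 8 pituitary genes are also named, although that rule did not cover them. Background shares cover genes with a value on every array compared and well above background on at least 1. A fold against a group not above background is a lower limit, taken from the lowest signal well above background. Alternatives were the 75th percentile, quantile normalization within tissue sets, normexp with an offset of 50, the filter, the matrix, the brightest probe, and leaving out each array. The number of arrays limits the precision. No flag rule applied, as each model has 1 array.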

Additional observations from a re-analysis of the deposited data

How the results depend on the processing

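No paired analysis was possible because each model has 1 array. A value was counted as unchanged where it moved by less than the SD of the ratio over the 14025 genes above background on all arrays (0.25 to 0.60), and a count where it stayed within 1.5 times. All 10 genes were at least 2-fold lower with STZ under each of the 6 settings of the processing. The median of 5xFAD stayed between 0.45 and 0.75. Scaling to the 75th percentile, normalizing within sets, and the 1.4-fold filter moved none of the medians and counts named here.

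Normexp with an offset of 50 gave smaller medians, and the cause was not tested. STZ minus Aβ became -3.79, 17 months minus the other ages 1.45 with 6 genes at least 2-fold higher, and cortex minus transgenic hippocampus -2.98. The ranges of the median became 1.53 in cortex and 4.19 in ICR hippocampus. The median ratio to the other arrays of the set became -0.55, -0.59, and 1.45 at 1.5, 4, and 17 months, 1.80 and 1.92 with Aβ at 5 and 10 µM, -3.07 and -2.74 with STZ at 2.5 and 3 mg/kg, and 2.16 with scopolamine.

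With the deposited matrix STZ minus Aβ was -4.29, the ICR range 4.45, and the ratios 2.17 and 2.08 (Aβ), -3.30 and -3.07 (STZ), and 2.27 (scopolamine). The brightest probe gave -1.77 at 1.5 months and -4.72 for cortex minus transgenic hippocampus. Against the median of the other arrays the ratios were -0.81 at both 1.5 and 4 months, 0.41 at 22 months, and -6.07 and -5.27 for STZ. The mean over the genes gave 3.63 at 17 months and -4.32 for STZ at 2.5 mg/kg. In transgenic hippocampus 7 genes ranged over at least 1.5-fold and 0 over 3-fold. The alternatives for STZ minus Aβ, 17 months minus the other ages, 5xFAD minus the other models, and cortex minus transgenic hippocampus were chosen after seeing the data, and normalization within sets cannot give the last. With both STZ arrays left out, likewise chosen afterwards, 0 of 10 genes ranged over 2-fold in ICR hippocampus.

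With 1 array left out at a time, the ratios ran from -2.09 to -0.55 at 1.5 months, -1.94 to -0.20 at 4 months, 2.80 to 3.44 at 17 months, -0.95 to 0.53 at 22 months, 1.58 to 3.57 and 1.81 to 3.84 with Aβ, -6.09 to -4.11 and -5.30 to -3.27 with STZ, and 1.74 to 3.72 with scopolamine. The ranges of the median ran from 0.72 (without 17 months) to 3.64 in cortex, 0.0486 (without 5xFAD) to 0.70 in transgenic hippocampus, and 5.33 to 6.12 in ICR hippocampus. Genes with a 2-fold range numbered 5 (without 17 months) to 10 in cortex and 0 (without 5xFAD) to 2 in transgenic hippocampus. STZ minus Aβ ran from -5.88 to -5.38, and 17 months minus the other ages from 2.80 to 3.44. Without the 17-month array, cortex minus transgenic hippocampus was -4.97. The slope of Wfdc2 in cortex ran from -0.0745 to 0.78 and that of Kcne2 from -0.64 to 2.11, lowest without 17 months. In transgenic hippocampus, where 2 arrays were then left, slopes ran from -0.70 to 2.27 (Kcnj13), -1.63 to 0.70 (Kcne2), and -0.0222 to 1.19 (Aqp1), lowest without 5xFAD.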

Other observations

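Of 8 pituitary genes, 3 were at least 2-fold higher on the MAPT array than on the NCSTN array. Prl, which encodes prolactin, was at 12.35 on the MAPT array and between 1.78 and 5.54 on the others, of which 3 were well above background (5xFAD, Aβ at 10 µM, and scopolamine). Gh, which encodes growth hormone, was at 6.71 on the MAPT array and 6.16 on the 22-month cortex array, and not well above background on the others. Cga, the shared subunit of glycoprotein hormones, was at 5.50 on the MAPT array and not well above background elsewhere. Tshb, Fshb, and Pou1f1 were not well above background on any array, and Lhb was at 5.67 on the MAPT array and 5.69 on the 5xFAD array. Pomc, which the brain also expresses, was between 8.72 and 9.34 on all arrays. On the MAPT array the median ratio of the choroid plexus genes to the other transgenic arrays was -0.39. Of 8 genes of thalamus and habenula, 7 were above background in STZ or Aβ hippocampus, and of these Plekhg1 alone was 2-fold apart (1.06), above background on 1 array of each kind.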
